A study of Mus musculus with 6 samples.

Results

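The genes examined were 10 members of the epidermal growth factor (EGF) system: the ligand genes Hbegf, Tgfa, Btc, Ereg, Epgn and Nrg1 and the receptor genes Egfr, Erbb2, Erbb3 and Erbb4. They were chosen by name as a gene family, with earlier results of these data known, and all 10 had a value among the 19938 genes measured. Signals came from 6 Affymetrix arrays of 4T1 cells, a mouse mammary carcinoma line, 3 of dishes given the vehicle DMSO and 3 of dishes given 500 nM TKI258 in DMEM with 10% FCS. Every dish was seeded with 750000 cells, grown for 24 h and then treated for 16 h. TKI258, or dovitinib, is a small-molecule kinase inhibitor whose main targets include FGF receptors. All dishes held 1 cell line in culture, so the replicates are separate dishes and not separate animals. The comparison sets transcript signals after TKI258 against those after vehicle.

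EGF family ligands are made as membrane-anchored precursors, which ADAM proteases cut to release the soluble factor. The released ligand joins ERBB receptors into dimers that signal through RAS and ERK and through PI3K and AKT. EGFR binds EGF, TGF-alpha, HB-EGF, betacellulin, epiregulin and epigen, while ERBB3 and ERBB4 bind neuregulins. ERBB2 has no known ligand of its own and serves as a dimer partner, and ERBB3 has an impaired kinase and passes signals through its partners. In mammary epithelium the system governs duct growth and milk-gland development, and several ligand genes are themselves induced by ERK signalling.

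After TKI258, 3 of the 6 ligand genes fell, Hbegf, Btc and Tgfa, and 1 of the 4 receptor genes, Erbb3, rose. The signals of Hbegf, Btc and Tgfa dropped to 26.0%, 35.7% and 44.0% of the DMSO signal on the linear scale, and that of Erbb3 stood at 125%. The other 6 members did not pass the threshold, an adjusted p below 0.05 in limma, with Benjamini-Hochberg adjustment over all 19938 genes. Over all genes 27.0% passed, 12.6% lower and 14.4% higher. Among the 11236 genes with a mean signal above 5 log2 units, fitted alone, 52.2% passed, and 6 members lay above that mean, including the 4 that passed. The groups did not overlap in 5 members, and in 40.2% of all genes. The median log2 change was 0.00 over the 10 members and 0.01 over all genes. In such bulk samples, fewer cells of a type and less RNA per cell cannot be told apart.

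**Figure D1:**
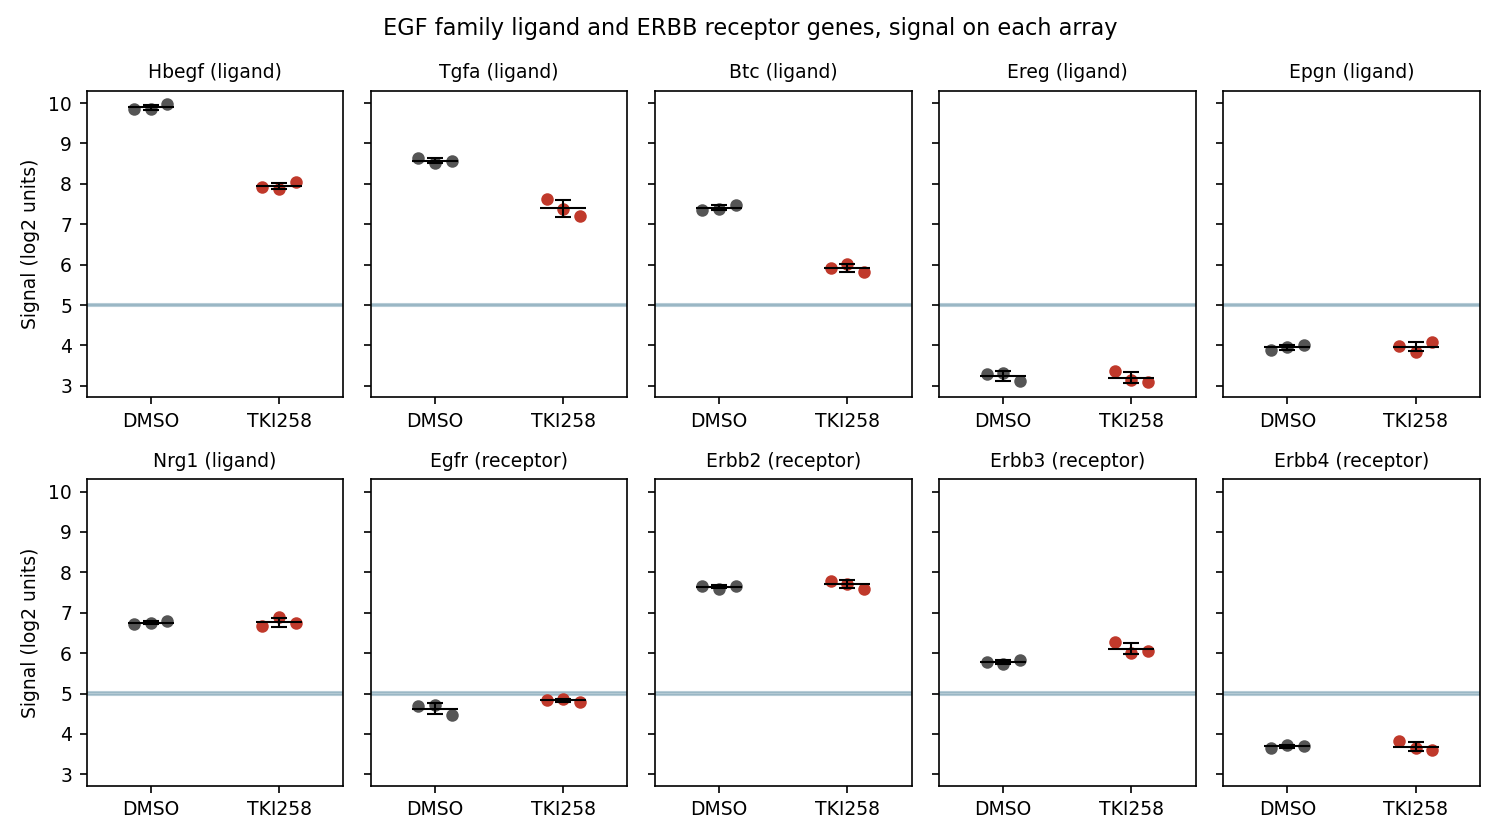
Signal in log2 units of each of the 10 genes on each array, with DMSO arrays in grey and TKI258 arrays in red; black marks are the group mean with SD (n = 3) and the blue band spans the array medians, 4.97 to 5.04. The TKI258 points lie wholly below the DMSO points in Hbegf, Tgfa and Btc and wholly above them in Egfr and Erbb3; levels of different genes come from different probes and are not to be compared.

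Hbegf encodes the heparin-binding ligand of EGFR and ERBB4. Its signal was 9.85, 9.86 and 9.97 log2 units on the DMSO arrays and 7.93, 7.88 and 8.04 on the TKI258 arrays. Every TKI258 array was below every DMSO array, and the gap between the nearest arrays of the groups was 1.81. The group means were 9.89 ± 0.06 (SD, n = 3) and 7.95 ± 0.08 (SD, n = 3). The log2 change was -1.95 (SE 0.07, 95% confidence interval -2.10 to -1.79, limma adjusted p = 6.43e-07), a 3.85-fold fall. Only 15 of the 19938 genes had a more negative change.

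Btc encodes betacellulin, a ligand of EGFR and ERBB4. It read 7.36, 7.38 and 7.48 log2 units with DMSO and 5.92, 6.02 and 5.81 with TKI258. The groups were again fully apart, by 1.34 at their nearest arrays. Means were 7.41 ± 0.06 (SD, n = 3) and 5.92 ± 0.10 (SD, n = 3), which gave a log2 change of -1.49 (SE 0.07, interval -1.65 to -1.32, limma adjusted p = 2.43e-06), or 2.80-fold. A more negative change was found in 37 genes.

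Tgfa encodes TGF-alpha, an EGFR ligand made by many epithelial and carcinoma cells. DMSO arrays gave 8.64, 8.52 and 8.57 log2 units, and TKI258 arrays gave 7.62, 7.37 and 7.19. The treated arrays were more spread than the controls, yet the nearest arrays of the groups were 0.90 apart. From means of 8.58 ± 0.06 (SD, n = 3) and 7.39 ± 0.21 (SD, n = 3), the log2 change was -1.18 (SE 0.10, interval -1.42 to -0.95, limma adjusted p = 4.49e-05), or 2.27-fold. A more negative change was found in 80 genes. The intervals of Hbegf and Btc did not overlap, while those of Btc and Tgfa did, and the differences between the 3 changes were not tested.

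The remaining ligand members did not pass. Nrg1, which encodes the ERBB3 and ERBB4 ligand neuregulin-1, read 6.73, 6.74 and 6.80 with DMSO and 6.67, 6.88 and 6.75 with TKI258. The groups overlapped, with a log2 change of 0.01 (SE 0.07, interval -0.16 to 0.18, limma adjusted p = 0.946), so the interval excludes a fall of the size seen in Hbegf, Btc or Tgfa. Epgn encodes epigen, an EGFR ligand, and read 3.89, 3.96 and 4.00 with DMSO and 3.99, 3.84 and 4.08 with TKI258, a change of 0.02 (interval -0.15 to 0.19, limma adjusted p = 0.890). Ereg encodes epiregulin, a ligand of EGFR and ERBB4. It read 3.30, 3.33 and 3.11 with DMSO and 3.36, 3.14 and 3.10 with TKI258, a change of -0.04 (interval -0.25 to 0.16, limma adjusted p = 0.787). In both genes the groups overlapped and every array lay below the array's median over all probe sets. The table has no detection calls, so whether Epgn and Ereg were expressed could not be told, and at such signals a change would be compressed.

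Of 5 further EGF family ligand genes taken as a list, 4 had a value and Areg was not analysed here. Nrg2, which encodes neuregulin-2, fell from 6.60 ± 0.09 (SD, n = 3) to 6.29 ± 0.09 (SD, n = 3) log2 units, a change of -0.30 (SE 0.08, limma adjusted p = 0.0148). Its call was lost without DMSO replicate 1 or DMSO replicate 3, at adjusted p = 0.0503 and 0.0622. The call was lost as well without moderation of the variance (adjusted p = 0.0593) and in a test against a fold of 1.2. Egf, Nrg3 and Nrg4 did not pass, at log2 changes of 0.05, -0.04 and 0.10 (limma adjusted p = 0.785, 0.859 and 0.509), and their group means lay between 3.23 and 4.88 log2 units, below the array medians.

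**Figure D2:**
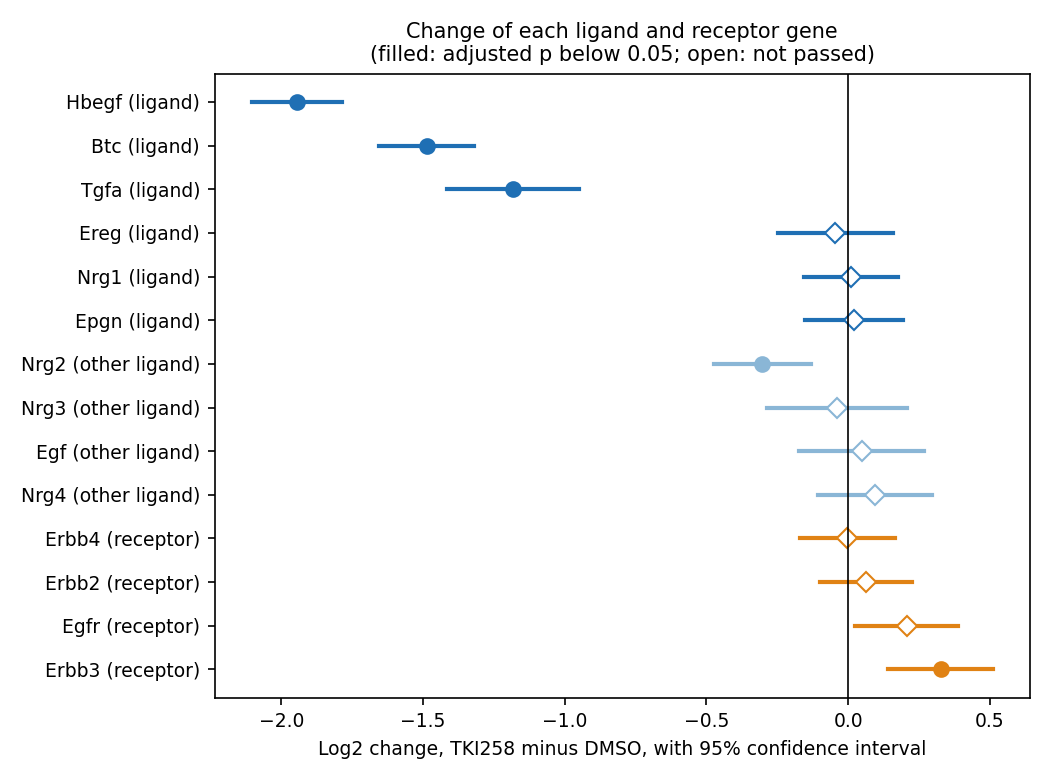
Log2 change (TKI258 minus DMSO, horizontal axis) of each ligand and receptor gene with its 95% confidence interval, unadjusted for the number of genes; filled circles passed an adjusted p below 0.05 and open diamonds did not. Hbegf, Btc and Tgfa stand at -1.95, -1.49 and -1.18, and no other interval drawn reaches as low as that of Tgfa.

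Btc, Ereg and Epgn lie next to one another on mouse chromosome 5 among the genes with a value, in the order Epgn, Ereg, Btc, and of these only Btc passed. Sequence before the gene start is shown for Btc and Tgfa, as ligand genes that fell, and for Epgn as a neighbour that did not pass. The sequences are RefSeq's, of build GRCm38.p6, each written 5′ to 3′ on the strand of its gene and ending at the base before the annotated gene start. For Tgfa only the 66 bases before the outermost annotated start are given. Capitals mark a match to a motif named in the next paragraph.
Btc, chr5:91402995-91403244, minus strand: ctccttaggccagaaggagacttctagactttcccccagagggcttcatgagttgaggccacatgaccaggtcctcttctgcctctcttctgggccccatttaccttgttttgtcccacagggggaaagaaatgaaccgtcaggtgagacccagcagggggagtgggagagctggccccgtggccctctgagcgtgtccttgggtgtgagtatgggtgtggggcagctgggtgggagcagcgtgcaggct
Tgfa, chr6:86194972-86195037, plus strand: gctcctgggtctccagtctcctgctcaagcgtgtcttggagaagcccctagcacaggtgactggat
Epgn, chr5:91027267-91027516, plus strand: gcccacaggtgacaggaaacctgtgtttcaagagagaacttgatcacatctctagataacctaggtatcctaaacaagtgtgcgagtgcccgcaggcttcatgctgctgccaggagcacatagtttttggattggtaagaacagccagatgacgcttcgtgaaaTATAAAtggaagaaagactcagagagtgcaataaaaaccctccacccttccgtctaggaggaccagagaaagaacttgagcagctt

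RefSeq promoter windows were at hand for 6 of the 10 members, namely Tgfa, Btc, Epgn, Egfr, Erbb2 and Erbb4. The 250 bases before each listed start were searched on both strands for 6 motifs. These were AP-1 (TGANTCA), ETS (CCGGAAG), the cAMP response element (TGACGTCA), the E-box (CACGTG), the GC box (GGGCGG) and the TATA box (TATAAA). None of these motifs was found in the windows of Btc, Erbb2 and Erbb4. The Tgfa window held 2 GC boxes, both outside the stretch printed, the Egfr window 1 GC box and 1 ETS match, and the Epgn window 1 TATA box. Among all 32851 windows of this length, 32.7% held the GC box, 12.4% the TATA box, 6.91% the ETS motif, 6.75% AP-1, 6.02% the E-box and 1.55% the cAMP response element. A match describes letters in a window and not binding.

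Among the receptor genes, Erbb3 was the member that passed. It read 5.79, 5.73 and 5.83 log2 units with DMSO and 6.26, 5.999 and 6.06 with TKI258. All treated arrays were above all controls, by 0.17 at the nearest arrays, with the first TKI258 array the highest. The means were 5.78 ± 0.05 (SD, n = 3) and 6.11 ± 0.14 (SD, n = 3), a log2 change of 0.33 (SE 0.08, interval 0.14 to 0.51, limma adjusted p = 0.0150). The call was lost without DMSO replicate 2 (adjusted p = 0.0596) and without moderation of the variance (adjusted p = 0.0745), in a range of 0.00589 to 1.00 over 16 alternatives.

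Egfr, which encodes the receptor shared by HB-EGF, betacellulin and TGF-alpha, read 4.70, 4.71 and 4.46 with DMSO and 4.85, 4.85 and 4.78 with TKI258. The groups did not overlap, but the nearest arrays were only 0.08 apart and all 6 values lay below the array medians. The log2 change of 0.21 (SE 0.08, unadjusted interval 0.02 to 0.39) did not pass (limma adjusted p = 0.0954), and it was 0.13 without DMSO replicate 3, the lowest array. Erbb2 read 7.66, 7.60 and 7.67 with DMSO and 7.80, 7.72 and 7.60 with TKI258. Its groups overlapped, and the log2 change was 0.06 (interval -0.10 to 0.23, limma adjusted p = 0.600). A second probe set, annotated to Erbb2 and Sympk together, was therefore not used for the gene. It read 11.84, 11.82 and 11.74 with DMSO and 12.07, 11.95 and 11.93 with TKI258, a change of 0.18 (SE 0.07). Its adjusted p was 0.133 in a limma fit of all 35557 probe sets, of which 15.8% passed. How much of its signal came from Erbb2 was not tested. Erbb4, which encodes a neuregulin receptor, read 3.66, 3.72 and 3.70 with DMSO and 3.82, 3.64 and 3.60 with TKI258, all below the array medians. These groups overlapped too, with a change of 0.00 (interval -0.17 to 0.17, limma adjusted p = 0.986).

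Genes that release the ligands moved in both directions. Of 16 shedding and trafficking genes 6 rose, 3 fell and 7 did not pass, with a median log2 change of 0.16. The share that passed was 56.2%, against 27.0% of all genes and 52.2% of genes with a mean above 5, fitted alone. Adam10, a sheddase of EGF and betacellulin in mouse cells, rose by 0.67 (SE 0.06, limma adjusted p = 7.31e-05), and Bace1, a protease that cuts neuregulin-1, rose by 0.50. Rhbdf2, which encodes the ADAM17 escort iRhom2, rose by 0.39 (limma adjusted p = 0.00235). Its call was lost in a test against a fold of 1.2 (adjusted p = 0.344). The protease genes Adam19 and Adam8 fell, with log2 changes of -0.55 and -0.50 (limma adjusted p = 0.00109 and 0.000418). Adam17, named for its role as the main sheddase of TGF-alpha and HB-EGF and not by the rule for naming genes, went from 10.09 ± 0.01 (SD, n = 3) to 9.86 ± 0.06 (SD, n = 3), a log2 change of -0.22 (SE 0.06, limma adjusted p = 0.0258). That call was lost without any one array except TKI258 replicate 1, and with renewed quantile normalization.

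Among 24 adaptor and first signalling step genes with a value, 8 rose, 2 fell and 14 did not pass. Thus 41.7% passed, against 27.0% of all genes and 52.2% of those with a mean above 5, and the median log2 change was 0.09. Of the 3 PI3K regulatory subunit genes in the list, Pik3r3 and Pik3r1 rose by 1.67 (SE 0.11, limma adjusted p = 7.74e-06) and 0.96 (SE 0.08, limma adjusted p = 2.75e-05), and Pik3r2 did not pass, at 0.09 (limma adjusted p = 0.396). Stat5a and Stat3, which encode transcription factors activated below growth factor receptors, rose by 1.10 and 0.84. Eps8, which encodes an EGFR substrate that acts on actin, changed by -0.63 (SE 0.07, limma adjusted p = 0.000180). The second gene that fell was the kinase gene Src, with a change of -0.20 (limma adjusted p = 0.0415), and its call was lost without any one array.

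Of 23 genes listed under ERBB restraint and degradation 8 fell, 3 rose and 12 did not pass, with a median log2 change of -0.04. Here 47.8% passed, against 27.0% of all genes and 52.2% of those with a mean above 5. Errfi1, which encodes the EGFR and ERBB2 inhibitor MIG6, fell from 11.03 ± 0.02 (SD, n = 3) to 10.35 ± 0.02 (SD, n = 3) log2 units. This was a change of -0.68 (SE 0.06, limma adjusted p = 4.47e-05). The ubiquitin ligase gene Rnf126, the gene Sh3kbp1, whose product binds CBL in receptor uptake, and the phosphatase gene Ptpn12 fell too, with log2 changes of -0.53, -0.49 and -0.47. The 3 that rose were the ubiquitin ligase gene Cblb by 0.50, Lrig2 by 0.32 and the deubiquitinase gene Usp8 by 0.21. The call of Usp8 was lost without any one of the DMSO arrays and without TKI258 replicate 1 or 2, and none of the 3 passed a test against a fold of 1.2.

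Of 11 membrane partner genes with a value 5 rose, 3 fell and 3 did not pass, and their median log2 change was 0.02. The share that passed was 72.7%, against 27.0% of all genes and 52.2% of those with a mean above 5. Erbin, which encodes an ERBB2-binding scaffold, rose by 0.72, the semaphorin receptor gene Plxnb1 by 0.70 and the tetraspanin gene Cd81 by 0.68 (limma adjusted p = 0.000175, 5.86e-05 and 0.000104). Those that fell were Cd44, whose heparan sulfate forms hold HB-EGF, the integrin alpha 6 gene Itga6 and Cd9, whose product associates with the HB-EGF precursor, with log2 changes of -0.72, -0.65 and -0.46 (limma adjusted p = 0.000129, 0.000163 and 0.000900). The call of Cd9 was lost in a test against a fold of 1.2 (adjusted p = 0.0815).

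**Figure D3:**
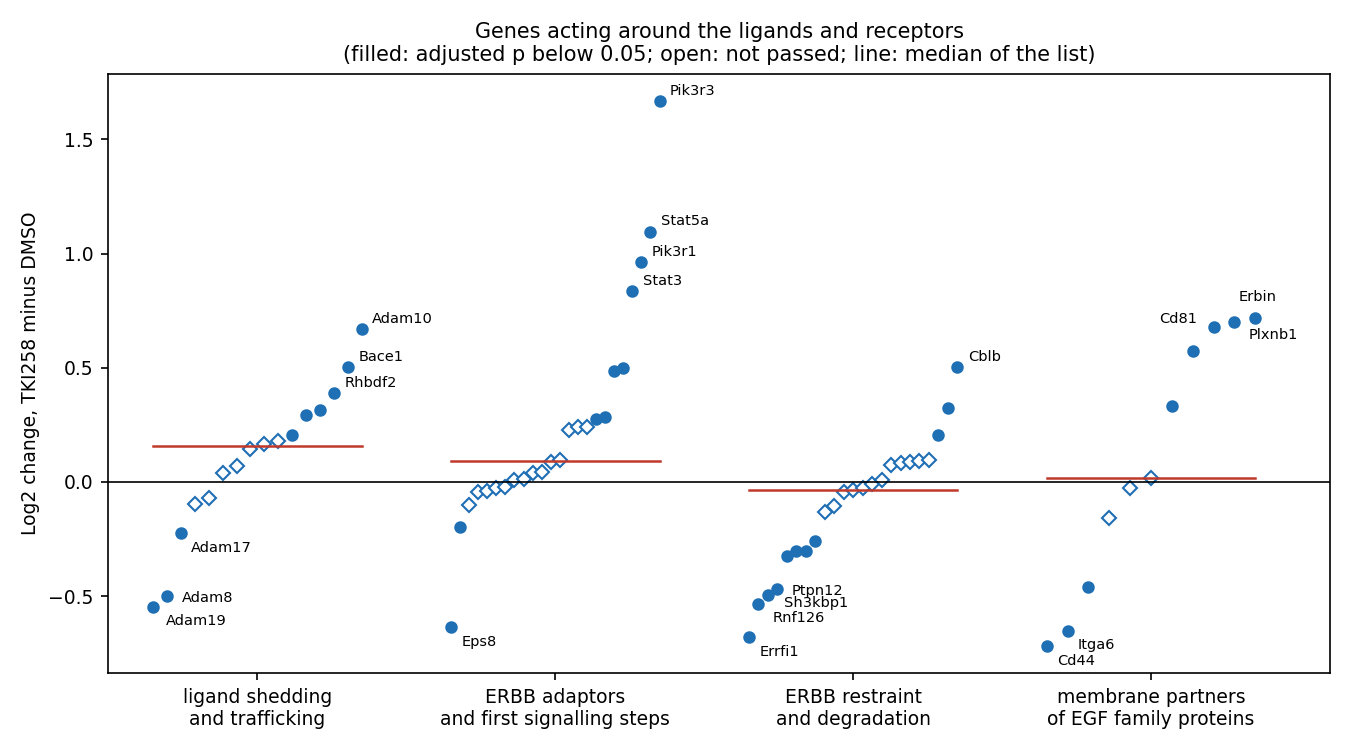
Log2 change (TKI258 minus DMSO, vertical axis) of every gene with a value in 4 lists of genes acting around the ligands and receptors; filled circles passed an adjusted p below 0.05, open diamonds did not, and red lines are list medians. Pik3r3 stands highest at 1.67, and each list holds genes that rose and genes that fell.

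The genes whose pattern was most like that of Hbegf were sought by the root mean square difference over the 6 arrays, after subtracting each gene's DMSO mean. They were Lipg, an endothelial-type lipase gene, Mfsd2a, a lipid transporter gene, and Apcdd1, a gene of a WNT inhibitor, at differences of 0.10, 0.10 and 0.13 log2 units. The log2 changes of Lipg, Mfsd2a and Apcdd1 were -1.97, -1.80 and -1.99. For Btc the nearest genes were Cpb1 (a carboxypeptidase gene), Prkg2 (a cGMP-dependent kinase gene) and Taf4b (a gene of a TFIID subunit), at 0.05, 0.06 and 0.07 log2 units. The changes of Cpb1, Prkg2 and Taf4b were -1.50, -1.54 and -1.42, and that of Prkg2 was -1.004 when its probe sets were averaged. With 2 groups of arrays, likeness by this measure is mostly likeness of the change itself.

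The label of 4T1 as mammary epithelial cells was checked against 6 epithelial markers, whose DMSO means lay between 7.58 (Epcam) and 11.92 (Krt8) log2 units. The sum of their log2 values was 56.6 to 57.4 on the DMSO arrays and 57.5 to 58.4 on the TKI258 arrays. Cdh1 and Krt19 were higher, Krt7 and Krt18 lower, and Epcam and Krt8 did not pass. The call of Krt7 was lost without moderation of the variance (adjusted p = 0.0699). Against a fold of 1.2 those of Krt7 and Krt18 were lost (adjusted p = 0.561 and 0.0551). The leukocyte gene Ptprc, the macrophage gene Csf1r and the endothelial gene Pecam1 had DMSO means of 3.76, 3.78 and 3.70 log2 units and did not pass, at changes of -0.02, 0.07 and 0.08 (limma adjusted p = 0.881, 0.671 and 0.577). Summed signals of the 4 fibroblast markers were 23.3 to 23.7 with DMSO and 26.9 to 27.2 with TKI258. Dcn and Pdgfra rose, and Col1a1 and Col3a1 did not pass, at 0.18 and -0.05. For the 5 macrophage markers the sums were 23.5 to 23.7 and 24.5 to 25.6. Cd14 and Cd68 rose, and Adgre1 did not pass, at -0.09, nor did Ptprc and Csf1r. For the 3 basal epithelial markers the sums were 14.6 to 14.9 and 16.6 to 17.5. Krt14 and Trp63 rose, and Krt5 did not pass, at -0.09. The calls of Cd14 and Cd68 were lost without moderation (adjusted p = 0.0828 and 0.0567), and those of Cd14 and Trp63 against a fold of 1.2 (adjusted p = 0.0538 and 0.0678). None of the 3 endothelial or 3 adipocyte markers passed, nor did the 1 Schwann cell marker with a value. The part of these markers in the changes of the ligand and receptor genes was not tested.

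**Figure D4:**
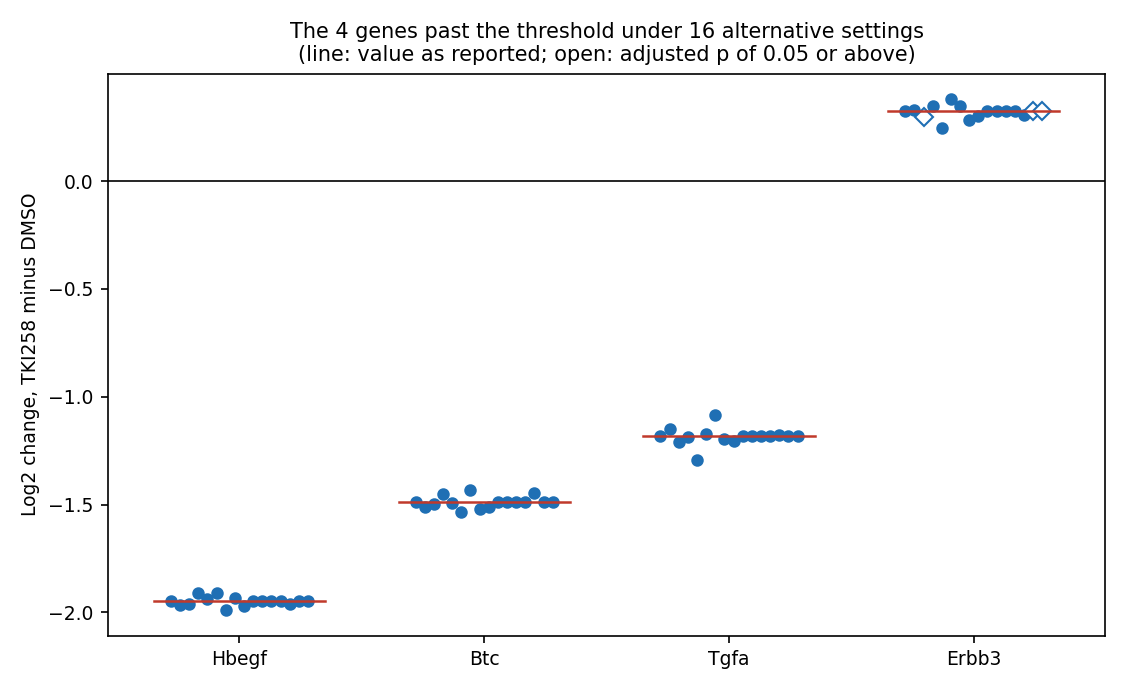
Log2 change (TKI258 minus DMSO, vertical axis) of the 4 members past the threshold, as reported (red line) and under 16 alternative settings each (points, open where the adjusted p was 0.05 or above). Hbegf, Btc and Tgfa kept their calls in all 16, and Erbb3 lost its call in 3.

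The falls of Hbegf, Btc and Tgfa passed in all 16 alternatives. With 1 array left out, the log2 changes were -1.99 to -1.91 for Hbegf, -1.54 to -1.43 for Btc and -1.29 to -1.08 for Tgfa. The highest adjusted p among these alternatives was 0.00176, 0.00246 and 0.00975 for the 3 genes. The change of Erbb3 lay between 0.25 and 0.38 with 1 array left out.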

How the data were processed

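Expression was measured in 4T1 cells with 6 arrays, 3 per group, grouped by their titles, which number biological replicates. The deposited table gives the authors' log2 signals for 35557 probe sets. The log2 scale was inferred from the range of the values. Per the submitters' processing notes the tools were RMA, affy and limma, with no version or order stated. RMA as usually run equalises array distributions, which hides a shift shared by all genes, and compresses changes of dim probe sets. Array medians were 4.97 to 5.04, correlations over genes 0.997 to 0.998 within groups and 0.988 to 0.990 between them, and precision is limited by the 3 arrays per group.

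Symbols came from the 2016 annotation of the array platform. The 21789 probe sets with exactly 1 symbol were kept and the brightest taken per gene, giving 19938 genes. The TKI258 minus DMSO change was fitted with limma 3.58.1 (R 4.3.3; lmFit, eBayes, treatment only, no filter), with two-sided p-values adjusted over all genes. The fit was tested on simulated data. Genes are named by fixed rule: all members and further ligands, up to 5 per list by adjusted p, and 3 nearest patterns for the 2 most changed members. Adam17, Pik3r2, Src, Lrig2, Usp8, Cd9, the fibroblast, macrophage and basal markers named and genes beside the members on a chromosome were picked with their values in view. The members and lists were chosen with earlier results of these data known. The lists give counts without a test. Same-numbered DMSO and TKI258 arrays had correlations of deviations of 0.02, 0.05 and 0.15, so the numbers were not taken as pairs. Alternatives are given in the closing section.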

Additional observations from a re-analysis of the deposited data

How the results depend on the processing

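The 3 lower members were called in all 17 alternatives, and the total of called members was 3 or 4. The 1 higher member became 0 without DMSO replicate 2, without moderation, at an adjusted p below 0.01 and under treat against a fold of 1.2, so leave-one-out counts ran from 0 to 1. Erbb3 kept its change of 0.33 without moderation and under treat, with adjusted p of 0.0745 and 1.00, and its leave-one-out changes were 0.25 to 0.38. Genes past the threshold numbered 5385, and 4319 to 5240 with 1 array left out, while treat gave 1921, 864 lower and 1057 higher. The fit with a replicate block gave 5364 genes and 4 members, and changed no call of a member. Of the 49 other named genes past the threshold, only Src lost its call there (adjusted p = 0.0669). Changes near 0 that did not pass turned sign. Nrg1 was at -0.0484 with renewed quantile normalization and -0.0131 with median centring, Epgn at -0.00255 with median centring and -0.0103 with array weights, Egf at -0.00944 and Nrg3 at 0.0446 with array weights, Parm1 at -0.00375 and -0.00446 with quantile normalization and centring, and Slc4a9 at -0.00202 with centring. Leave-one-out ranges that crossed 0 were -0.0489 to 0.0606 for Nrg1, -0.0336 to 0.0847 for Epgn, -0.122 to 0.00465 for Ereg, -0.0687 to 0.0399 for Erbb4, -0.0273 to 0.154 for Egf, -0.163 to 0.0599 for Nrg3, -0.0728 to 0.00602 for Ptprc, -0.0254 to 0.144 for Csf1r, -0.00439 to 0.117 for Pecam1, -0.0797 to 0.0784 for Parm1 and -0.00517 to 0.0605 for Slc4a9. Of the 49 genes, 34 kept their call in each alternative that gave them a value (15 or 16 each), and 15 lost it in at least 1. Against a fold of 1.2 the counts higher and lower were 2 and 2 for shedding, 4 and 1 for adaptors, 0 and 4 for restraint and 3 and 2 for partners, and 0 further ligands were lower. With only genes of mean above 5 tested, Ereg, Epgn, Egfr and Erbb4 gave no value. The cause of these differences was not tested.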

Other observations

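Genes beside the members on their chromosomes were read as well. For each member the nearest protein-coding gene with a value was taken on either side, by order in the reference assembly, which gave 16 genes that are not members. Of these 5 fell, 2 rose and 9 did not pass in limma. Over all genes 27.0% passed, and 52.2% of those with a mean above 5 log2 units, fitted alone. Both neighbours of Tgfa fell, the adducin gene Add2 from 5.46 ± 0.20 (SD, n = 3) to 4.55 ± 0.07 (SD, n = 3) and Fam136a from 7.90 ± 0.10 (SD, n = 3) to 6.89 ± 0.33 (SD, n = 3) log2 units. Their log2 changes were -0.91 (SE 0.10, limma adjusted p = 0.000156) and -1.01 (SE 0.15, limma adjusted p = 0.000785), beside -1.18 for Tgfa. Beside Hbegf, the prefoldin gene Pfdn1 fell by 0.38 and Slc4a9 did not pass, at 0.02. The call of Pfdn1 was lost in a test against a fold of 1.2 (adjusted p = 0.441). Parm1, beside Btc on the side away from Ereg, did not pass either, at 0.02 (limma adjusted p = 0.917).

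Next to receptor genes, Pa2g4, which lies beside Erbb3 and encodes the ERBB3-binding protein EBP1, fell by 0.81 (SE 0.06, limma adjusted p = 2.66e-05) while Erbb3 rose. Ikzf2, an Ikaros family factor gene beside Erbb4, rose by 1.30 (SE 0.13, limma adjusted p = 9.76e-05), the helicase gene Wrn beside Nrg1 rose by 0.39 and Fbxo48 beside Egfr fell by 0.56. In a test against a fold of 1.2 the call of Wrn was lost (adjusted p = 0.413). The neighbours named here were singled out after their values were seen, and no cause was tested.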
